A study of Mus musculus with 13 samples.

Results

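Induced hepatocyte-like colonies (iHep) were compared with the tail-tip fibroblast (TTF) cultures of the same study across all genes measured. The comparison took the arrays by their titles and set 4 iHep against 3 TTF arrays, 7 of the 13 of the series. The model behind it also held 4 hepatocyte arrays, which entered only the estimate of the spread. Both groups were p19Arf-null, which removes a cell cycle brake acting through p53, on a mixed C57BL/6-129 mouse background. Each iHep array held a single epithelial colony, whose descent from 1 cell was not tested, raised from p19Arf-null TTFs given lentiviruses for 3 liver-enriched transcription factors that the labels do not name. The colonies were taken 21 days after induction from a modified Block's medium, a hepatocyte culture medium, and a partial trypsin step was used to enrich for epithelial cells. The TTF cultures were taken 42 days after isolation from DMEM with 10% fetal bovine serum. Time in culture and medium differed between the groups in the same way as the cells and cannot be told apart from them. Nothing in the labels says that the arrays of a group came from separate animals, so the p-values stand for array-to-array spread, part of which may be technical.

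Fibroblasts are flat, contractile cells that crawl on matrix and are held in their state by mesenchymal transcription factors, several of which repress epithelial genes. Epithelial cells instead sort their surface into an apical and a basolateral face, seal it with junctions and line the apical face with microvilli, channels and mucins. Hepatocytes, bile duct cells and gut epithelium share much of this apparatus, and all derive from the embryonic endoderm. The liver secretory genes and the matrix genes, the best known classes to move between fibroblast and hepatocyte, were set aside here and counted only.

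The 7 arrays were of like brightness, with a 75th percentile of intensity of 1850 to 1920 in iHep, against 1720 to 2030 in TTF. Array iHep 2 had a higher floor, with a lowest intensity of 10.1 against 3 to 3.71 on the other iHep arrays, and 63.2% of its features lay above the limit of measurement, against 74.2% to 83%. The iHep arrays fell into pairs. Across all features the Spearman correlation was 0.950 between iHep 1 and iHep 2 and 0.978 between iHep 3 and iHep 4, but between 0.886 and 0.919 across the pairs. Among the TTF arrays it was 0.984 between TTF 2 and TTF 3, and 0.947 and 0.946 between TTF 1 and each of these. Xist, the RNA of the inactive X chromosome, had levels of 2.02 and 1.95 on iHep 3 and iHep 4 and was above the limit neither on iHep 1 and iHep 2 nor on any TTF array. The study's labels name no slide or batch for these pairs, and whether the pairs differed in donor or sex was not tested.

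Of 19087 genes tested, 1309 were higher in iHep (6.86%) and 1244 were lower (6.52%) by limma's moderated test, for which a call needs a 2-fold change and an adjusted p below 0.05. The levels below are log2 intensities relative to the 75th percentile of the array, and changes are given on the log2 scale, ± the standard error (SE) of the fit, for 4 iHep and 3 TTF arrays. The median change over all genes was 0.07. With only iHep and TTF in the fit, 1100 and 1125 genes were called. Of 176 calls followed gene by gene, 18 then ended (Gcnt3, Insr, Ptger3, Il15, Tnfrsf11a, Csf1, Tnfrsf11b, Abcd2, Fabp1, Fabp5, Lipg, Edem2, Trib3, Vim, Tff3, Agr2, Car2 and Cdh5). Large changes ran more often upward, with 308 increases and 165 decreases of at least 5 log2 units, and 81 and 27 of at least 8. A set of 82 genes (0.43% of those tested) was above the limit on all iHep arrays and on no TTF array, and 67 genes (0.351%) showed the opposite pattern. Without TTF 2 the counts of higher and lower genes were 789 and 785, and without TTF 3 they were 760 and 751. With iHep 3 and iHep 4 as the only colonies in the fit they were 2016 and 1995. In bulk samples such as these, fewer cells of a type and less RNA per cell cannot be told apart.

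The labels were checked against marker genes. Their counts compare with 6.86% of all genes called higher and 6.52% called lower. Of 11 epithelial markers, 9 were higher in iHep and none was lower, and their summed linear level, in units of the array's 75th percentile, was 126 to 424 on the iHep arrays against 3.75 to 7.93 on the TTF arrays. Of 12 fibroblast markers, 7 were lower (4 without TTF 2 or TTF 3), with summed levels of 0.873 to 21.7 on the iHep arrays against 228 to 327 on the TTF arrays. Of 16 hepatocyte markers, 7 were higher, with sums of 147 to 397 on the iHep arrays against 0.614 to 1.47 on the TTF arrays, and Cyp2e1, a cytochrome of mature hepatocytes, was above the limit on no array of either group. Cdh1, which encodes E-cadherin, the adhesion protein of epithelial junctions, had levels of 1.95, 2.24, 4.0 and 3.83 on iHep 1 to 4, against -6.51, -7.25 and -7.45 on TTF 1 to 3, and rose by 10.07 ± 0.58 (adjusted p = 3e-06). The simple epithelial keratins Krt8 and Krt18 rose by 9.43 ± 1.48 (adjusted p = 0.0018) and 8.95 ± 1.0 (adjusted p = 0.00024), with Krt8 lowest on iHep 2 at -0.52, against 3.13 to 6.60 on the other iHep arrays. Both keratins were above every TTF array on every iHep array, as were 97.9% of genes called higher and 13.5% of all genes tested. Epcam, an epithelial surface protein, had levels of -3.94, -3.15, -1.37 and -0.39 on iHep 1 to 4, against -5.40, -5.81 and -6.15 on TTF 1 to 3, and rose by 3.57 ± 0.84 (adjusted p = 0.016, but 0.059 to 0.071 without TTF 2 or TTF 3).

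The fibroblast side of the label check was less even. Thy1, a surface glycoprotein of fibroblasts, had levels of -7.29, -6.45, -0.68 and -1.45 on iHep 1 to 4, against 4.78, 4.36 and 4.37 on TTF 1 to 3. It fell by 8.47 ± 2.17 (adjusted p = 0.025), with the call ending without any 1 of TTF 1 to 3, iHep 1 or iHep 2 (adjusted p of 0.055 to 0.081). The mesenchymal filament gene Vim fell by 1.70 ± 0.47 (adjusted p = 0.036), a call that ended without TTF 2, TTF 3, iHep 1, iHep 2 or hepatocyte 4 (0.051 to 0.14). Pdgfra, a growth factor receptor of fibroblasts, was not called, at -6.84 on iHep 2 and 0.07 to 1.15 on the other iHep arrays, against 1.52 to 2.94 on the TTF arrays (adjusted p = 0.3). Prrx1, a limb and dermal fibroblast factor, also missed the threshold (-2.82 ± 1.08, adjusted p = 0.12). Every iHep array, at -3.86 to -1.57, still lay below every TTF array, at 0.32 to 0.66, as for 12.8% of all genes tested. Of 11 keratinocyte and hair follicle markers and 8 melanocyte and Schwann cell markers, none was called, although 4 keratinocyte markers were higher without iHep 1 and 1 was without iHep 2. Their sums were 0.741 to 2.28 and 0.375 to 0.76 on the iHep arrays, against 0.662 to 0.931 and 0.561 to 2.25 on the TTF arrays.

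Among the 12 largest increases by the naming rule were genes of mucosal defence, absorption and epithelial lipid metabolism. Reg3g, a lectin that kills bacteria near the gut lining, had levels of 7.88, 6.81, 8.11 and 8.09 on iHep 1 to 4, against -7.50, -7.01 and -8.93 on TTF 1 to 3, where 1 of 3 arrays was above the limit, and rose by 15.54 ± 0.73 (adjusted p = 1.1e-06). Its neighbour in function Reg3b had levels of 4.68, 4.02, 7.05 and 7.59 on iHep 1 to 4, with no TTF array above the limit, and was at least 9821-fold higher (adjusted p = 0.00016). A bound of this kind sets the iHep mean against the limit of measurement on the TTF arrays, at 3 times the local floor. With the limit at 5 times the floor the bound was 5893-fold for Reg3b, and the other bounds below dropped by a like factor. Slc39a4, the zinc importer of absorptive epithelium, was the most even of the large increases. Its levels were 6.56, 6.75, 6.42 and 6.55 on iHep 1 to 4, against -4.71, -5.17 and -5.44 on TTF 1 to 3, and it rose by 11.68 ± 0.35 (adjusted p = 6.6e-08). Lcn2, an iron-sequestering secreted lipocalin, rose by 13.10 ± 0.88 (adjusted p = 9.4e-06), at 5.12 to 6.64 on the iHep arrays against -7.59 to -6.66 on the TTF arrays (2 of 3 above the limit).

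Other members of this group split by colony pair. Sptssb, a small subunit of the enzyme that starts sphingolipid synthesis, had levels of 3.44, 3.40, 6.85 and 6.87 on iHep 1 to 4 and was at least 6461-fold higher than in TTF (adjusted p = 0.00015). The keratin gene Krt23 had levels of 1.39, 1.29, 6.44 and 6.18 and was at least 2545-fold higher (adjusted p = 0.00012). Sprr2d, a small proline-rich protein of stressed and cornifying epithelia, had levels of -3.18, -1.65, 5.80 and 5.83 and was at least 531-fold higher (adjusted p = 0.0046). With 1 array left out the lowest bounds were 4334-fold for Sptssb, 1391-fold for Krt23 and 204-fold for Sprr2d, and with iHep 1 and iHep 2 alone they were 1960-fold, 455-fold and 30.7-fold. No TTF array was above the limit for these 3 genes, and each was higher on iHep 3 and iHep 4 than on iHep 1 and iHep 2. Ccl20, a chemokine of mucosal epithelium, ran the other way among the colonies. Its levels were 5.13, 4.88, 1.99 and 2.83 on iHep 1 to 4, against -5.43, -7.47 and -8.02 on TTF 1 to 3 (1 of 3 above the limit), a rise of 10.69 ± 0.96 (adjusted p = 6.3e-05). Gkn2, a secreted protein of stomach surface cells, had levels of 5.80, -3.34, 8.33 and 8.29 on iHep 1 to 4, against -7.13, -7.47 and -7.77 on TTF 1 to 3 (2 of 3 above the limit). It rose by 12.23 ± 2.31 (adjusted p = 0.0052), or by 14.93 without iHep 2. Ffar4, a receptor for long-chain fatty acids, and Cldn2, a claudin that forms a pore in tight junctions, rose by 10.71 ± 0.88 (adjusted p = 3.6e-05) and 10.59 ± 0.57 (adjusted p = 2.5e-06), each with 1 of 3 TTF arrays above the limit.

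The 12 largest decreases by the naming rule held secreted regulators of Wnt and BMP signalling and surface proteins of mesenchymal cells. Dkk2, a secreted Wnt antagonist, had levels of -4.37, -6.09, -6.11 and -4.76 on iHep 1 to 4 (3 of 4 above the limit), against 2.44, 4.79 and 5.08 on TTF 1 to 3, and fell by 9.44 ± 1.16 (adjusted p = 0.00043). Rspo2, a secreted protein that strengthens Wnt signals, was above the limit on no iHep array, against levels of -0.06, 0.53 and -0.30 on TTF 1 to 3, and was at least 128-fold lower (adjusted p = 1.2e-06). Grem1, a secreted BMP antagonist, had levels of -7.53, -7.47, -3.39 and -2.87 on iHep 1 to 4 (2 of 4 above the limit), against 1.76, 4.37 and 4.23 on TTF 1 to 3, and fell by 8.77 ± 1.59 (adjusted p = 0.0042). A Wnt antagonist, a Wnt enhancer and a BMP antagonist thus fell side by side. Plxdc1, a transmembrane protein, was the most even of these genes among the colonies, at -5.30, -5.09, -5.88 and -5.92 on iHep 1 to 4, against 2.02, 3.63 and 3.69 on TTF 1 to 3, and fell by 8.67 ± 0.47 (adjusted p = 2.5e-06). Rgma, a BMP co-receptor, fell by 8.47 ± 1.36 (adjusted p = 0.0021, 3 of 4 iHep arrays above the limit), and Cd248, the stromal surface protein endosialin, fell by 8.50 ± 1.38 (adjusted p = 0.0022). Tgfbi, a secreted protein induced by TGF-beta, had levels of -6.08, -5.07, -0.07 and 0.92 on iHep 1 to 4, against 5.32, 5.89 and 6.16 on TTF 1 to 3, and fell by 8.37 ± 1.48 (adjusted p = 0.0036). Evi2a, which lies within an intron of Nf1, fell by 9.05 ± 1.09 (adjusted p = 0.00036, 2 of 4 iHep arrays above the limit). Thbs4, a thrombospondin, fell by 9.04 ± 0.90 (adjusted p = 0.00012, 3 of 4 above the limit) and Colec12, a scavenger receptor, fell by 8.96 ± 1.44 (adjusted p = 0.0021, 2 of 4 above the limit).

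**Figure D1:**
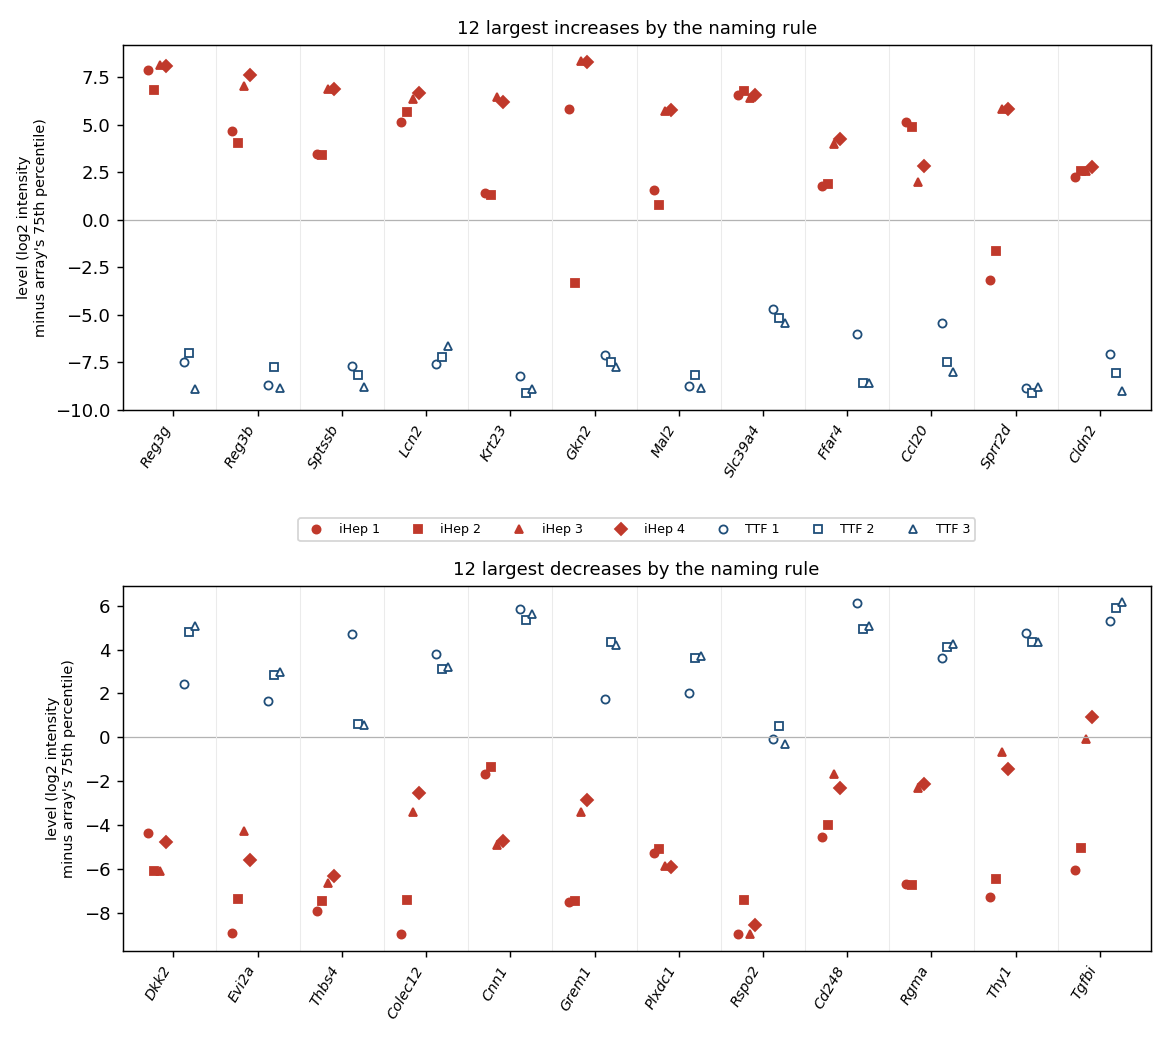
Level on each array (log2 intensity minus the array's 75th percentile) of the 12 largest increases (top) and 12 largest decreases (bottom) by the naming rule, iHep arrays filled at the left of each gene and TTF arrays open at the right. The naming rule took genes whose groups do not overlap, and the iHep arrays are split for genes such as Sprr2d, at -3.18 and -1.65 on iHep 1 and iHep 2 and at 5.80 and 5.83 on iHep 3 and iHep 4.

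Part of the transcription factors of epithelium rose and part of those of mesenchyme fell. Of 17 measured epithelial transcription and splicing regulators, 7 were higher (41.2%, against 6.86% of all genes) and none was lower (against 6.52%). Their median change was 1.61. Elf3, an Ets factor of glandular epithelium, had levels of -2.80, -2.70, 3.79 and 3.76 on iHep 1 to 4, with no TTF array above the limit. It was at least 260-fold higher (adjusted p = 0.0029, at least 122-fold without iHep 3 and 27.1-fold with iHep 1 and iHep 2 alone). The related factor Ehf had levels of -0.72, -0.18, -0.69 and -0.73 on iHep 1 to 4, against -7.84, -8.06 and -7.29 on TTF 1 to 3, and rose by 7.15 ± 0.39 (adjusted p = 2.5e-06). Esrp2, which directs epithelial splicing, had levels of -0.02, 0.33, 2.07 and 1.82 on iHep 1 to 4, against -2.50, -5.04 and -4.88 on TTF 1 to 3, and rose by 5.19 ± 0.73 (adjusted p = 0.00091). Ehf was even among the colonies while Elf3 differed by over 6 log2 units between the colony pairs. Of factors named after their values were seen, Klf5, Grhl1 and Ovol2 rose by 4.13 ± 0.72 (adjusted p = 0.0033), 3.92 ± 0.69 (adjusted p = 0.0036) and 2.06 ± 0.41 (adjusted p = 0.0068). Grhl2 and Esrp1 were not called, at 0.85 ± 0.49 (adjusted p = 0.32) and 1.57 ± 0.76 (adjusted p = 0.22).

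Of 23 measured endoderm and gut transcription factors, 8 were higher (34.8%, against 6.86% of all genes) and none was lower (against 6.52%). Their median change was 1.57. Foxa2, a pioneer factor of endoderm, had levels of -0.43, -1.32, -1.06 and -0.53 on iHep 1 to 4, against -8.72, -9.08 and -8.60 on TTF 1 to 3 (1 of 3 above the limit), and rose by 7.96 ± 0.34 (adjusted p = 5.9e-07). Cdx2, the homeobox factor of intestine, had levels of -2.33, 0.56, -2.31 and -1.60, against -7.37, -9.22 and -8.97 on TTF 1 to 3 (1 of 3 above the limit), and rose by 7.10 ± 0.92 (adjusted p = 0.00059). Sox17, a factor of early endoderm and bile ducts, rose by 6.04 ± 0.67 (adjusted p = 0.00022), at -2.56 to -1.11 on the iHep arrays against -8.05 to -7.49 on the TTF arrays. Regulators of liver, intestine and pancreas were thus called together in the same colonies. Pdx1, the pancreas and duodenum factor, had levels of -3.31, -4.23, -0.78 and -1.0 on iHep 1 to 4 and rose by 5.41 ± 0.77 (adjusted p = 0.00099, 1 of 3 TTF arrays above the limit). The liver regulators Hnf4a and Hhex were higher on iHep 1 and iHep 2, with levels of -1.28, -1.06, -2.72 and -2.94 for Hnf4a and of 0.09, 0.62, -2.82 and -3.19 for Hhex on iHep 1 to 4. They rose by 4.95 ± 0.61 (adjusted p = 0.00043) and 4.73 ± 0.84 (adjusted p = 0.0037). Foxa3, above the limit on no TTF array, was at least 12.1-fold higher (adjusted p = 0.0013). Pdx1, Hnf4a, Hhex and Foxa3 were named after their values were seen. Foxa1, Gata4 and Gata6 were not called, at -0.32 (adjusted p = 0.72), 1.57 (adjusted p = 0.24) and -0.12 (adjusted p = 0.88). A transcript from a lentivirus and the cell's own transcript of the same factor were not told apart here.

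Of 52 measured mesenchymal transcription factors, 22 were lower (42.3%, against 6.52% of all genes) and 1 was higher (1.92%, against 6.86%). Their median change was -2.01. Prrx2, a homeobox factor of limb and skin mesenchyme, had levels of -4.13, -4.19, -3.18 and -2.86 on iHep 1 to 4, against 5.16, 3.52 and 3.69 on TTF 1 to 3, and fell by 7.71 ± 1.05 (adjusted p = 0.00076). Twist1, a driver of mesenchymal identity, had levels of -6.19, -5.66, -4.0 and -3.29, against 2.41, 2.12 and 2.25, and fell by 7.04 ± 0.90 (adjusted p = 0.00053). Its relative Twist2 had levels of -7.64, -2.45, -1.94 and -0.64 on iHep 1 to 4 (3 of 4 above the limit), against 3.78, 3.40 and 3.34 on TTF 1 to 3, and fell by 6.68 ± 1.34 (adjusted p = 0.0074). For all 3 genes every iHep array lay below every TTF array, as for 98.9% of genes called lower and 12.8% of all genes tested. The factor that rose was Wt1, a regulator of mesothelium and kidney, at -0.19, -2.35, -0.81 and -1.53 on iHep 1 to 4, against -8.67, -9.11 and -8.53 on TTF 1 to 3 (1 of 3 above the limit), by 7.55 ± 1.59 (adjusted p = 0.0094).

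The zinc finger factors that repress epithelial genes were named after their values were seen. Zeb1 had levels of -3.23, -3.06, -2.22 and -2.03 on iHep 1 to 4, against -1.04, -0.74 and -0.46 on TTF 1 to 3, and fell by 1.89 ± 0.38 (adjusted p = 0.0078). Zeb2 fell by 1.84 ± 0.47 (adjusted p = 0.025), at -6.16 to -4.19 on the iHep arrays against -3.63 to -3.22 on the TTF arrays, and Snai1 fell by 4.68 ± 1.14 (adjusted p = 0.02), at -5.42 to -0.75 against 0.88 to 3.35. Snai2 fell by 3.75 ± 0.92 (adjusted p = 0.021) but remained bright on iHep 3, with levels of 0.75, -0.31, 3.35 and 2.0 on iHep 1 to 4, against 5.07, 5.23 and 5.30 on TTF 1 to 3. The calls of Zeb2 without TTF 1, TTF 2, TTF 3, iHep 3 or iHep 4 (adjusted p of 0.052 to 0.089), of Snai1 without TTF 1 (0.08) and of Snai2 without any 1 TTF array (0.055 to 0.075) did not hold.

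**Figure D2:**
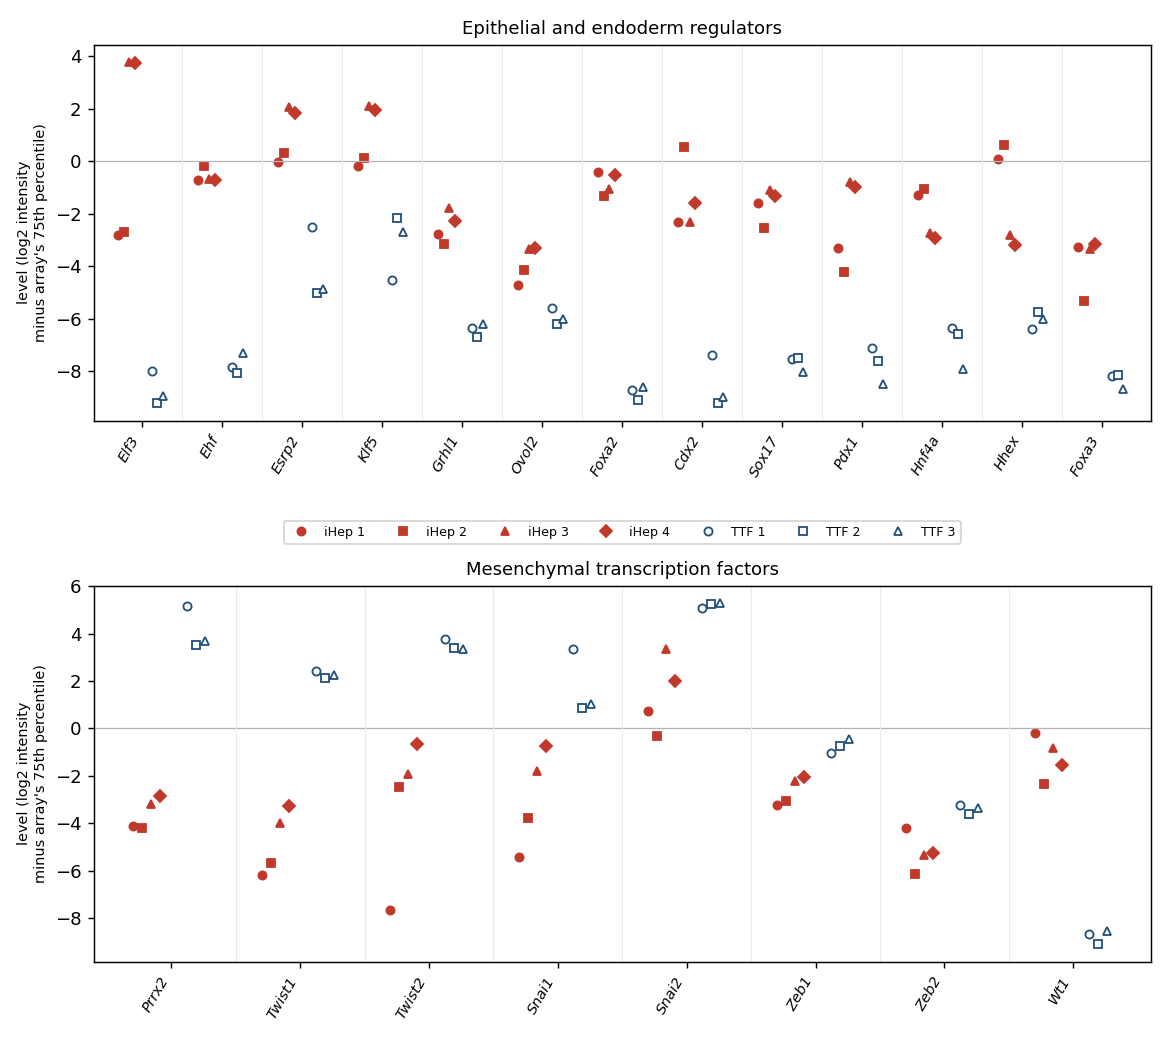
Level on each array (log2 intensity minus the array's 75th percentile) of epithelial and endoderm regulators (top) and mesenchymal transcription factors (bottom), iHep arrays filled at the left of each gene and TTF arrays open at the right. In the top panel the iHep arrays lie above the TTF arrays, evenly for Ehf (-0.73 to -0.18) and in pairs for Elf3 and Hhex; in the bottom panel they lie below, except for Wt1.

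Many genes that build an apical surface rose. The median change of 30 measured genes of apical polarity and vesicle traffic was 2.42. Of these, 15 were higher (50%, against 6.86% of all genes) and none was lower (against 6.52%). This count was 9 without TTF 2 and 9 without TTF 3. Crb3, the apical membrane anchor of the Crumbs complex, had levels of -0.74, -0.05, -1.34 and -1.34 on iHep 1 to 4, with no TTF array above the limit, and was at least 75.9-fold higher (adjusted p = 2.5e-06). Pard6b, the scaffold of the Par complex, had levels of -2.58, -2.55, -3.19 and -3.25 on iHep 1 to 4, against -5.67, -7.76 and -7.40 on TTF 1 to 3, and rose by 4.05 ± 0.53 (adjusted p = 0.00062). Patj, a Crumbs complex scaffold, rose by 1.84 ± 0.34 (adjusted p = 0.0044), and Llgl2, a basolateral polarity protein, by 4.66 ± 0.60 (adjusted p = 0.00056). Crb3, Pard6b and Llgl2 were brighter on iHep 1 and iHep 2 than on iHep 3 and iHep 4, whereas Mal2 and Prom1 ran the other way. Mal2, a carrier of apical transport in hepatocytes, had levels of 1.58, 0.77, 5.72 and 5.77 on iHep 1 to 4, with no TTF array above the limit. It was at least 1892-fold higher (adjusted p = 8.8e-05, at least 1109-fold without iHep 4 and 389-fold with iHep 1 and iHep 2 alone). Prom1, a protein of apical protrusions, had levels of -4.59, -1.14, 1.39 and 1.78 and rose by 7.38 ± 1.30 (adjusted p = 0.0036, 1 of 3 TTF arrays above the limit). Pard6b, Patj and Llgl2 were named after their values were seen.

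The median change of 26 measured genes of the brush border, the carpet of microvilli on absorptive epithelium, was 2.05. Of these, 11 were higher (42.3%, against 6.86% of all genes) and 1 was lower (3.85%, against 6.52%). Vil1, the actin bundler villin, had levels of 3.00, 2.88, 2.44 and 2.07 on iHep 1 to 4, against -7.77, -6.58 and -6.63 on TTF 1 to 3, and rose by 9.59 ± 0.93 (adjusted p = 0.0001). Eps8l3, a relative of the actin capping protein Eps8, had levels of 1.49, 2.80, 3.74 and 3.96, against -6.46, -6.29 and -6.76, and rose by 9.50 ± 0.66 (adjusted p = 1.3e-05). Pls1, the bundler fimbrin of microvilli, rose by 9.19 ± 0.93 (adjusted p = 0.00013), at 2.07 to 3.22 on the iHep arrays against -8.16 to -5.06 on the TTF arrays (2 of 3 above the limit). All 3 genes stood above the 75th percentile on every iHep array. Ezr, which ties actin to the apical membrane and was named after its values were seen, was already at 1.18 to 2.75 on the TTF arrays, reached 5.26 to 5.76 on the iHep arrays and rose by 3.26 ± 0.39 (adjusted p = 0.00033). The gene that fell was Anpep, a surface aminopeptidase shared by enterocytes and fibroblasts, at -1.23, -1.11, -1.05 and -0.95 on iHep 1 to 4, against 4.61, 2.88 and 2.95 on TTF 1 to 3, by 4.57 ± 0.46 (adjusted p = 0.00013).

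The median change of 18 measured membrane proteases of epithelia and their inhibitors was 2.46. Of these, 8 were higher (44.4%, against 6.86% of all genes) and 1 was lower (5.56%, against 6.52%). Spint2, an inhibitor of the membrane protease matriptase, had levels of 1.65, 1.94, 2.04 and 2.08 on iHep 1 to 4, against -7.33, -6.75 and -6.46 on TTF 1 to 3, and rose by 8.77 ± 0.32 (adjusted p = 2.8e-07). The surface protease gene Tmprss2 had levels of -0.85, 1.36, 1.88 and 2.08, against -6.09, -6.87 and -7.37, and rose by 7.89 ± 0.65 (adjusted p = 3.6e-05). The matriptase gene itself, St14, was not called (1.84 ± 0.63, adjusted p = 0.084). Wfdc2, a secreted protein with an inhibitor fold, rose by 5.98 ± 1.38 (adjusted p = 0.015, 2 of 3 TTF arrays above the limit), but not without TTF 2 or TTF 3 (adjusted p of 0.051 to 0.078). The inhibitor gene Spink5 fell by 1.79 ± 0.48 (adjusted p = 0.031) near the limit (2 of 4 iHep arrays above it), a call that ended without TTF 1, TTF 2, iHep 1, iHep 2 or iHep 4 (0.059 to 0.11).

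The promoters of these genes were read for short motifs, because the repressors ZEB and SNAI are known to bind the E-box CAGGTG in promoters of epithelial genes. Windows of 250 bases before to 50 bases after the start site were taken from RefSeq (GRCm38.p6), which gave 18900 windows of 15306 tested genes, among them 1317 windows of 1026 higher genes and 1309 windows of 953 lower genes. CAGGTG, read on both strands, was in 29% of windows of higher genes, 16.6% of windows of lower genes and 19.4% of all windows, and at least 2 copies were in 5.92%, 1.99% and 2.8%. The E-boxes CAGCTG and CACGTG, which differ in the central bases and cannot share a match with CAGGTG, were in 19.1% and 7.44% of windows of higher genes, 18.3% and 7.72% of windows of lower genes and 15.9% and 8.38% of all windows. Base composition also differed between the sets, with a median observed over expected CpG ratio of 0.53 in windows of higher genes, 0.59 in windows of lower genes and 0.62 in all. Within windows of a CpG ratio over 0.6, CAGGTG was in 32% of higher, 13.7% of lower and 17% of all windows, and within the rest in 26.8%, 19.3% and 22%. The half-site GTTAAT of HNF1 was in 8.66% of windows of higher genes, 5.58% of windows of lower genes and 5.87% of all. These shares are descriptions of letters without a test, and a match is not a shown binding site.

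CAGGTG was in 43.3% of windows of the polarity list, 51.7% of the brush border list and 53.8% of the membrane protease list, called or not. Among members that were higher and had a window, 8 of 11 polarity genes, 8 of 10 brush border genes and 4 of 6 protease genes held it in at least 1 window, against 33.2% of all higher genes with a window and 22% of all tested genes with one. The windows with most matches are shown for members of these lists that were described above, with CAGGTG or its reverse complement CACCTG in capitals, 5′ to 3′ on the strand of the gene. They were chosen after the motifs had been counted. Crb3 (chr17:57061951-57062250, plus strand) and Eps8l3 (chr3:107876980-107877279, plus strand) held 4 matches, Patj (chr4:98395576-98395875, plus strand) and Spint2 (chr7:29281928-29282227, minus strand) held 3, and Pard6b (chr2:168080754-168081053, plus strand) and Epcam (chr17:87635729-87636028, plus strand) held 2.
Crb3: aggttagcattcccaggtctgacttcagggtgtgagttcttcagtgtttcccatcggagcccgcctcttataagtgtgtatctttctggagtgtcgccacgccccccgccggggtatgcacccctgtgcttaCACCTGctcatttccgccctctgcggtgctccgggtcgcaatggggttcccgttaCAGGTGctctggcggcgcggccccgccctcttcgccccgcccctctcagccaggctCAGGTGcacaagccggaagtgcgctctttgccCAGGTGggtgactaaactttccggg
Eps8l3: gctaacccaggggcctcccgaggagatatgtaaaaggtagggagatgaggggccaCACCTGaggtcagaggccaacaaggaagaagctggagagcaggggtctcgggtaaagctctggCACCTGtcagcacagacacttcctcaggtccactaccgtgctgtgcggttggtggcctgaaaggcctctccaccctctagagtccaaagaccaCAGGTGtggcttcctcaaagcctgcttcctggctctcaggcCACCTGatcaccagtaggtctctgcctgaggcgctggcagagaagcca
Patj: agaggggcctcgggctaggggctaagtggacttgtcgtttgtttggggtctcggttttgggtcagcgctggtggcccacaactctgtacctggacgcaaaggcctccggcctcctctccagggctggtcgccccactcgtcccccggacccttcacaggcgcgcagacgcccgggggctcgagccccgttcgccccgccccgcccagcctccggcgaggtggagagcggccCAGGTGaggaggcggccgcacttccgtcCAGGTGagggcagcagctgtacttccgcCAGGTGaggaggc
Spint2: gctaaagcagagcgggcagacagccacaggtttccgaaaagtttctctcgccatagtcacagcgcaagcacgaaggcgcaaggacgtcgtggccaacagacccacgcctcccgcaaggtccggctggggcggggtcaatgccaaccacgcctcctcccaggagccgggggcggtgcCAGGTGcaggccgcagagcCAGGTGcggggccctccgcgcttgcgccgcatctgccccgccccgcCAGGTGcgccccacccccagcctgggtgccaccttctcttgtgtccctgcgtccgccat
Pard6b: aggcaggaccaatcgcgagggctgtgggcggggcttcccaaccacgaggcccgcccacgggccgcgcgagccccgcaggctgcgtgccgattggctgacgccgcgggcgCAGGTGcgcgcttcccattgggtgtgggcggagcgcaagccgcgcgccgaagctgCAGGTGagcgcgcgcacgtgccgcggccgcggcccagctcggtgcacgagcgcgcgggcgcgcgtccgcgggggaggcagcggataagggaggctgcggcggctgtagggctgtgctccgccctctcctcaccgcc
Epcam: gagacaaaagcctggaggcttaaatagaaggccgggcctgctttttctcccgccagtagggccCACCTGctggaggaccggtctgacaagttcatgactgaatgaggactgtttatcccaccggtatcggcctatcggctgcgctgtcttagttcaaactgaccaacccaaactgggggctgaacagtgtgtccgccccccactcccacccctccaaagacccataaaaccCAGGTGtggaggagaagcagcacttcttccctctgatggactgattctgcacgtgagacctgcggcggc
In Patj the matches begin 19 bases before and 10 and 38 bases after the start site, whereas in Eps8l3 they run from 195 bases before it to 3 bases after it in a window that has the lowest CpG ratio of those shown, 0.19 against 0.45 to 1.06.

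**Figure D3:**
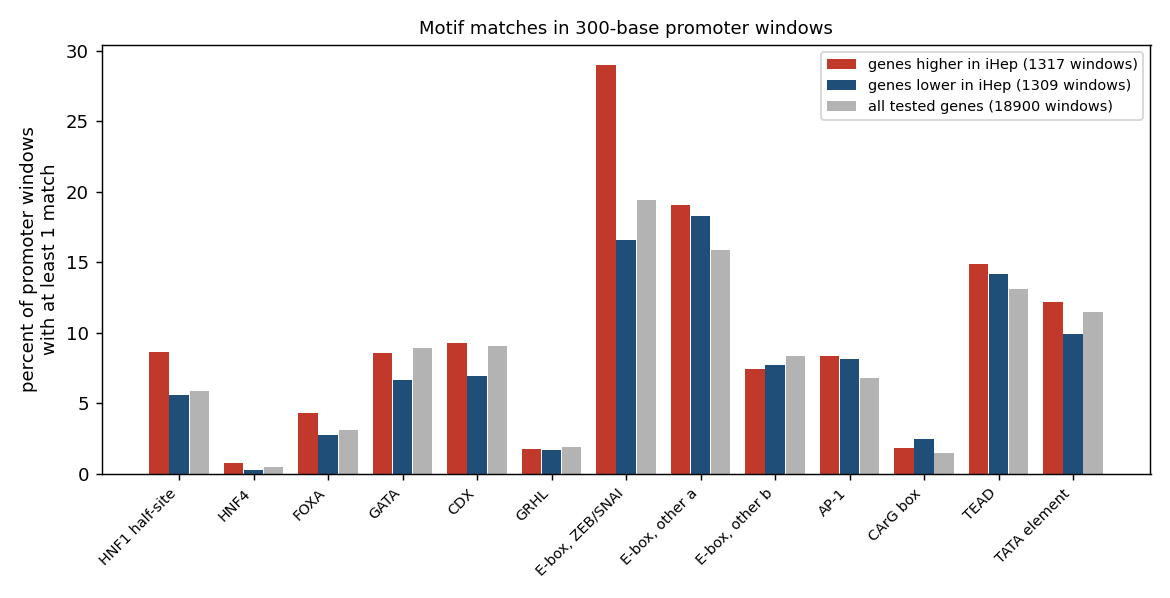
Percent of 300-base promoter windows with at least 1 match to each of 13 motifs, for genes higher in iHep (1317 windows), genes lower in iHep (1309 windows) and all tested genes (18900 windows). The widest gap is at the ZEB/SNAI E-box CAGGTG, at 29%, 16.6% and 19.4%; the other E-boxes are CAGCTG and CACGTG, in this order.

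Mucins, trefoil factors and other mucosal secretions had a median change of 5.38, the highest of the lists other than the epithelial markers. Of 26 measured, 12 were higher (46.2%, against 6.86% of all genes) and none was lower (against 6.52%). The count was 7 without TTF 3. Several of the secretions were far brighter on iHep 3 and iHep 4 than on iHep 1 and iHep 2. Tff3, a trefoil peptide of mucus, had levels of 1.89, -4.04, 7.95 and 8.02 on iHep 1 to 4, against -5.40, -6.47 and -6.52 on TTF 1 to 3, and rose by 9.59 ± 2.49 (adjusted p = 0.027). Agr2, which folds mucins, had levels of -3.99, -3.07, 5.61 and 5.12, against -5.81, -6.86 and -6.51, and rose by 7.32 ± 2.11 (adjusted p = 0.042). Neither call held without any 1 of TTF 1 to 3, iHep 3 or iHep 4 (adjusted p of 0.062 to 0.093 for Tff3 and, with each hepatocyte array too, of 0.057 to 0.13 for Agr2). Muc2, the gel mucin of intestine, was at -4.29, -7.46, 6.19 and 6.45 on iHep 1 to 4, against -5.53, -4.84 and -4.47 on TTF 1 to 3, and was not called (adjusted p = 0.31). The membrane mucin gene Muc13 was steadier, at -1.76, -1.75, 0.67 and 0.94 on iHep 1 to 4, and rose by 6.73 ± 0.82 (adjusted p = 0.00039, 2 of 3 TTF arrays above the limit). Tff3, Agr2, Muc2 and Muc13 were named after their values were seen.

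Markers of other endodermal organs were read beside these genes. Their counts compare with 6.86% of all genes called higher. Of 12 enterocyte markers, 5 were higher (Vil1, Cdx2, Lgals4, Muc13 and Slc5a1), with summed levels of 13 to 61.1 on the iHep arrays against 0.432 to 0.578 on the TTF arrays, while Cdx1 was above the limit on no array of either group. Of 16 markers of stomach, lung and pancreas, 5 were higher (Gkn2, Sftpd, Tff1, Pdx1 and Atp4a; 3 without TTF 3), with sums of 7.89 to 748 on the iHep arrays against 0.146 to 0.354 on the TTF arrays. Lgals4, a gut lectin, had levels of 1.32, 2.96, 5.72 and 5.36 on iHep 1 to 4, against -3.71, -3.13 and -2.92 on TTF 1 to 3, and rose by 7.09 ± 0.92 (adjusted p = 0.00061). Of 10 macrophage and leukocyte markers, Cd14 and Ptprc were higher and the other 8 were not called, with a median change of 0.35. Their sums were 13.6 to 33.3 on the iHep arrays, where nearly all of each sum was Cd14, against 0.805 to 0.881 on the TTF arrays. Adgre1, a defining macrophage marker, was above the limit on no array. Cd14 rose by 4.85 ± 0.51 (adjusted p = 0.00017), at 3.72 to 5.04 on the iHep arrays against -0.62 to -0.41. Of 11 endothelial markers, Cdh5 alone was higher (5.97 ± 1.59, adjusted p = 0.029, 1 of 3 TTF arrays above the limit), and Tie1 and Emcn were above the limit on no array. Their sums were 0.164 to 2.22 on the iHep arrays against 0.1 to 0.409 on the TTF arrays. The calls of Cdh5 and Ptprc ended without any 1 TTF array, for Cdh5 also without iHep 3 or iHep 4 and for Ptprc also without iHep 1 or iHep 2 (adjusted p of 0.07 to 0.1 and 0.061 to 0.11). The part of such cells in the results was not tested.

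Transferases that extend the sugar chains of mucins and surface proteins moved with the mucosal genes in part. Of 38 measured, 10 were higher (26.3%, against 6.86% of all genes) and 2 lower (5.26%, against 6.52%), with a median change of 0.88. B3galt5, which builds type 1 chains in gut epithelium, had levels of -2.21, -2.67, 3.74 and 4.0 on iHep 1 to 4, with no TTF array above the limit. It was higher on every iHep array (adjusted p = 0.0025), as were 13.5% of all genes tested. Galnt3, which starts mucin-type chains, had levels of -2.97, -2.49, 0.37 and 0.93, against -7.57, -5.35 and -5.69, and rose by 5.16 ± 1.11 (adjusted p = 0.01). Both were dimmer on iHep 1 and iHep 2 than on iHep 3 and iHep 4. Gcnt3, a mucin branching enzyme, had levels of -4.93, -7.40, 1.53 and 1.96 on iHep 1 to 4, with 3 iHep arrays and no TTF array above the limit. It was at least 35.5-fold higher (adjusted p = 0.046). The bound was 13.5-fold without iHep 4 and 2.29-fold with iHep 1 and iHep 2 alone. The call of Gcnt3 ended without any 1 of 9 arrays, among them all TTF and all hepatocyte arrays, iHep 3 and iHep 4 (adjusted p of 0.061 to 0.13). The sialyltransferase gene St3gal2 fell by 2.28 ± 0.38 (adjusted p = 0.0028) and St6galnac4 fell by 1.37 ± 0.23 (adjusted p = 0.0025).

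Of 37 measured ion channels and pumps of epithelia, 13 were higher (35.1%, against 6.86% of all genes) and none was lower (against 6.52%). Their median change was 1.64. Clic6, a chloride channel protein, had levels of 2.70, 3.43, 1.11 and 0.31 on iHep 1 to 4, against -6.19, -7.86 and -8.04 on TTF 1 to 3, and rose by 9.25 ± 1.14 (adjusted p = 0.00043). Kcne3, a potassium channel subunit of secretory epithelium, had levels of -0.28, -1.02, 3.67 and 3.94, against -7.62, -7.50 and -7.74 (2 of 3 above the limit), and rose by 9.20 ± 1.25 (adjusted p = 0.00075). Ano1, a calcium-gated chloride channel, rose by 6.85 ± 0.84 (adjusted p = 0.00043, 2 of 3 TTF arrays above the limit). Chloride channels, the potassium channel subunit that acts beside them and the chloride channel gene Cftr were thus called in the same colonies. Cftr had levels of -0.24, 0.10, 1.70 and 1.59 on iHep 1 to 4, against -4.51, -4.95 and -5.58 on TTF 1 to 3, and rose by 5.81 ± 0.65 (adjusted p = 0.00024). It was named after its values were seen. In the Slc family of carriers, 43 of 349 genes were higher (12.3%) and 11 lower (3.15%). Of 77 Cyp genes, mainly cytochromes of drug and steroid metabolism, 18 were higher (23.4%) and 5 lower (6.49%). These family shares compare with 6.86% higher and 6.52% lower over all genes. Slc22a23, an orphan carrier, and Slc17a1, a phosphate and urate carrier, were named after their values were seen and rose by 7.84 ± 0.57 (adjusted p = 1.5e-05) and 7.61 ± 1.45 (adjusted p = 0.0054, 1 of 3 TTF arrays above the limit).

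Much of the contractile and membrane apparatus of fibroblasts fell. Of 32 measured genes of caveolae and stress fibres, 21 were lower (65.6%, against 6.52% of all genes) and none was higher (against 6.86%). Their median change was -2.28. Tagln, an actin-binding protein of smooth muscle and myofibroblasts, had levels of -0.43, 0.75, -1.78 and -2.80 on iHep 1 to 4, against 5.85, 6.15 and 6.52 on TTF 1 to 3, and fell by 7.24 ± 0.86 (adjusted p = 0.00034). Cnn1, a calponin that tunes actomyosin, had levels of -1.67, -1.37, -4.93 and -4.73, against 5.84, 5.36 and 5.62, and fell by 8.78 ± 1.77 (adjusted p = 0.0074). Lmod1, an actin nucleator of smooth muscle, fell by 7.56 ± 1.24 (adjusted p = 0.0023), at -5.02 to -4.35 on the iHep arrays against 2.57 to 3.04. Every iHep array lay below every TTF array for these genes, as for 98.9% of all genes called lower and 12.8% of all genes tested. Of genes named after their values were seen, Myl9, a myosin light chain, fell by 7.22 ± 0.91 (adjusted p = 0.0005) and Acta2, the actin of myofibroblasts, fell by 5.88 ± 1.09 (adjusted p = 0.0047). Cav1, the coat protein of caveolae, had levels of -1.93, -0.67, -1.05 and -0.40 on iHep 1 to 4, against 4.46, 4.37 and 4.52 on TTF 1 to 3, and fell by 5.47 ± 1.0 (adjusted p = 0.0044), and the caveolar coat protein gene Cavin1 fell by 2.32 ± 0.37 (adjusted p = 0.002). Of 11 markers of skeletal muscle and cartilage, Acta1 and Col2a1 were lower (18.2%, against 6.52% of all genes). When any 1 TTF array was left out, Acta1 kept its call and Col2a1 did not. The marker sums were 0.792 to 6.77 on the iHep arrays against 11.7 to 23.1 on the TTF arrays.

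The CArG box is the motif bound by serum response factor in contractile genes. It was in 5 of the 38 windows (13.2%) of the caveolae and stress fibre list, called or not. The share was 2.44% of windows of lower genes, 1.82% of windows of higher genes and 1.44% of all. Of 18 lower members of the list with a window, only Myl9 and Cnn2 held it, and its other windows in the list were of uncalled members. The call of Cnn2 (-2.23 ± 0.62, adjusted p = 0.036) ended without TTF 1, TTF 2, TTF 3, iHep 3, iHep 4 or hepatocyte 1 (adjusted p of 0.051 to 0.14). Their windows are shown with the CArG box in capitals, from RefSeq (GRCm38.p6), for Myl9 at chr2:156775214-156775513 and for Cnn2 at chr10:79988350-79988649, both on the plus strand.
Myl9: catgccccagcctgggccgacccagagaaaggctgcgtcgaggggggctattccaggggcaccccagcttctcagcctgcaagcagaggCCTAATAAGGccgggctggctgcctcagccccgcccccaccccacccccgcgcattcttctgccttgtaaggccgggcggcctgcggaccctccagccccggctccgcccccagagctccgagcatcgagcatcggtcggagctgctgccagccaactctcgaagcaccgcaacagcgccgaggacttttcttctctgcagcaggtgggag
Cnn2: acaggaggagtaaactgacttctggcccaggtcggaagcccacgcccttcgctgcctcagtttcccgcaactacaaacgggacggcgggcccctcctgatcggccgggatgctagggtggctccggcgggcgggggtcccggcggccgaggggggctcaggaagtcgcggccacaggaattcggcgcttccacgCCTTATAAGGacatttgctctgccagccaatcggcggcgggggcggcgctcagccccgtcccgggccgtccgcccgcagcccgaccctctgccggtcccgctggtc
The match began 161 bases before the start site in Myl9 and 56 bases before it in Cnn2.

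Ligands and receptors of signalling families moved in both directions. Of 48 measured receptor tyrosine kinases, 3 were higher (6.25%, against 6.86% of all genes) and 5 lower, with a median of -0.26. Pdgfrb, the receptor for platelet-derived growth factor in mesenchyme, had levels of -1.93, -2.42, -0.10 and 0.20 on iHep 1 to 4, against 6.14, 4.77 and 4.54 on TTF 1 to 3, and fell by 6.21 ± 1.1 (adjusted p = 0.0037). Fgfr1 had levels of -5.34, -5.00, -4.79 and -4.85, against -1.62, -2.13 and -2.05, and fell by 3.07 ± 0.31 (adjusted p = 0.00012). Fgfr4, the fibroblast growth factor receptor of hepatocytes, ran the other way, at -1.47, -1.01, -2.75 and -2.18, against -3.28, -3.73 and -4.65, a rise of 2.03 ± 0.49 (adjusted p = 0.018) that was lost without TTF 2 or TTF 3 (adjusted p of 0.054 to 0.094). Erbb3, dim at -6.68 to -5.67 on the iHep arrays against -7.77 to -7.19 on the TTF arrays, rose by 1.31 ± 0.33 (adjusted p = 0.023). Insr rose by 1.08 ± 0.30 (adjusted p = 0.036), and Epha3 fell by 3.12 ± 0.84 (adjusted p = 0.031, 3 of 4 iHep arrays above the limit). These 3 calls ended without TTF 2, TTF 3 or iHep 3, for Insr and Epha3 also without TTF 1, iHep 1 or iHep 4, and for Insr also without hepatocyte 4 (adjusted p up to 0.11, 0.15 and 0.11 for Erbb3, Insr and Epha3). Egfr and Met, receptors used by hepatocytes and fibroblasts alike, were not called, at 0.10 (adjusted p = 0.89) and 0.53 (adjusted p = 0.72). The share of members called lower, 10.4%, compares with 6.52% of all genes, and the counts fell to 0 higher and 3 lower without TTF 2 or TTF 3. Without iHep 3 the count of higher genes was 1, and without iHep 1 that of lower genes was 3.

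Of 37 measured Notch and Hedgehog genes, 6 were higher (16.2%, against 6.86% of all genes) and 3 lower (8.11%, against 6.52%). Their median was -0.03, and 1 was lower without TTF 2 or TTF 3. The Hedgehog ligand genes Dhh and Ihh rose and the pathway's transcription factor genes Gli2 and Gli3 fell, while Shh (0.22, adjusted p = 0.76) and Gli1 (-0.10, adjusted p = 0.86) were not called. Dhh had levels of -0.62, -0.25, 1.53 and 1.87 on iHep 1 to 4, against -4.78, -6.41 and -6.64 on TTF 1 to 3, and rose by 6.58 ± 0.76 (adjusted p = 0.00031). Ihh, the ligand secreted by gut epithelium, had levels of -2.89, -3.24, -4.58 and -4.05, against -7.37, -8.61 and -8.37, and rose by 4.43 ± 0.45 (adjusted p = 0.00013). Gli2, an effector of the pathway in receiving cells, fell by 2.53 ± 0.55 (adjusted p = 0.011), at -7.34 to -6.43 on the iHep arrays against -4.85 to -3.32. Gli3 fell by 1.75 ± 0.47 (adjusted p = 0.03) and Lfng, a modifier of Notch, fell by 1.80 ± 0.42 (adjusted p = 0.017), calls lost without TTF 2 or TTF 3 (and for Gli3 also without TTF 1, iHep 1, iHep 3 or iHep 4; adjusted p of 0.056 to 0.1). The Notch ligand gene Jag2 rose by 4.66 ± 0.56 (adjusted p = 0.00035, 2 of 3 TTF arrays above the limit).

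Of 49 axon guidance genes, which also steer cell movement outside the nervous system, 3 were higher (6.12%) and 7 lower (14.3%), with a median of -0.30. These shares compare with 6.86% and 6.52% of all genes, and the count of lower genes was 4 without TTF 3. Sema4g, a membrane semaphorin, had levels of 0.30, 0.42, 2.08 and 2.03 on iHep 1 to 4, against -3.25, -3.20 and -3.14 on TTF 1 to 3, and rose by 4.40 ± 0.49 (adjusted p = 0.00022). Sema3e rose by 2.88 ± 0.47 (adjusted p = 0.0023), at -3.75 to -1.78 on the iHep arrays against -5.91 to -5.36. Sema3a, a secreted repellent, had levels of -7.89, -7.47, -6.60 and -6.42 on iHep 1 to 4 (3 of 4 above the limit), against -5.06, -1.41 and -1.18 on TTF 1 to 3, and fell by 4.54 ± 0.90 (adjusted p = 0.007). Class 3 semaphorins were therefore called in both directions. Ntn1, the secreted guidance cue netrin, fell by 3.66 ± 0.60 (adjusted p = 0.0024), with 1 of 4 iHep arrays above the limit. The netrin receptor gene Unc5b fell by 3.66 ± 0.89 (adjusted p = 0.019) and Sema4a rose by 2.49 ± 0.58 (adjusted p = 0.016), but both calls ended without TTF 1 or TTF 3, and that of Unc5b also without TTF 2 or iHep 4 (adjusted p of 0.05 to 0.072).

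Of 30 genes of the Hippo pathway, which reads cell shape and crowding, and of its targets, 2 were higher and 7 lower, with a median of -0.27. The shares were 6.67% higher, against 6.86% of all genes, and 23.3% lower, against 6.52%. The count of lower genes was 4 without TTF 1. Wwc1, the upstream scaffold Kibra, had levels of 3.82, 4.28, 2.20 and 2.05 on iHep 1 to 4, against -1.43, -0.74 and -1.5 on TTF 1 to 3, and rose by 4.31 ± 0.55 (adjusted p = 0.00057). Ccn2, a classic target induced by the pathway's effector YAP, had levels of 4.6, 4.18, 1.26 and 2.77, against 5.96, 7.21 and 7.41, and fell by 3.66 ± 0.73 (adjusted p = 0.0073). Vgll3, a TEAD cofactor, fell by 4.52 ± 0.83 (adjusted p = 0.0044), at -2.43 to -0.23 on the iHep arrays against 2.68 to 3.63. Yap1 itself was not called, at 0.17 to 0.50 on the iHep arrays against 0.42 to 0.72 (adjusted p = 0.63). The calls of Tead4 (2.35 ± 0.62, adjusted p = 0.029) and Fat4 (-2.73 ± 0.63, adjusted p = 0.016, 3 of 4 iHep arrays above the limit) ended without TTF 1, and that of Tead4 also without TTF 3, iHep 1 or iHep 2 (adjusted p of 0.056 to 0.1).

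Of 41 immunoglobulin and neural adhesion genes, 6 were higher (14.6%, against 6.86% of all genes) and 3 lower (7.32%, against 6.52%). Their median was 0.25, and 1 was lower without TTF 2 or TTF 3. Icam1, the leukocyte adhesion molecule, had levels of 2.57, 3.68, 0.70 and 0.48 on iHep 1 to 4, against -0.65, -5.43 and -5.56 on TTF 1 to 3, and rose by 5.74 ± 1.16 (adjusted p = 0.0077). Cadm1, a lateral adhesion molecule of epithelium, rose by 5.71 ± 0.60 (adjusted p = 0.00016), at -2.60 to -0.40 on the iHep arrays against -7.67 to -6.90. Ceacam1, an adhesion molecule of the bile canaliculus, had levels of -2.82, -3.24, 0.21 and 0.82, against -6.22, -6.02 and -5.58, and rose by 4.68 ± 0.96 (adjusted p = 0.0083). Icam1 was brighter on iHep 1 and iHep 2 and Ceacam1 on iHep 3 and iHep 4. Nectin3 fell by 2.56 ± 0.51 (adjusted p = 0.0071) and Ncam1 fell by 3.01 ± 0.69 (adjusted p = 0.015, but 0.052 to 0.053 without TTF 2 or TTF 3).

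Lipid mediator genes were called in both directions, and cytokine genes had shares of calls near those of all genes. Of 40 prostaglandin and leukotriene genes, 5 were higher (12.5%, against 6.86% of all genes) and 6 lower (15%, against 6.52%). Their median was 0.04, and 2 were higher without TTF 2 or TTF 3. Ptgis, which makes prostacyclin, had levels of -6.98, -7.41, -5.37 and -5.04 on iHep 1 to 4 (3 of 4 above the limit), against -0.43, 1.26 and 1.09 on TTF 1 to 3, and fell by 6.84 ± 1.12 (adjusted p = 0.0023). The receptor gene Ptger1 fell by 3.26 ± 0.52 (adjusted p = 0.0019, 3 of 4 iHep arrays above the limit). Of 51 interleukin and TNF family genes, 3 were higher (5.88%, against 6.86% of all genes) and 3 lower (5.88%, against 6.52%), with a median of 0.33. Il1rap, a shared receptor subunit, fell by 2.49 ± 0.45 (adjusted p = 0.0041), at -7.28 to -5.02 on the iHep arrays against -3.53 to -3.32. The remaining calls of these lists that the naming rule took did not hold without single arrays. Without TTF 2 or TTF 3, Pla2g12b (4.62, adjusted p = 0.016), Ptgds (3.13, 0.017), Ptger3 (5.02, 0.038), Csf1 (-3.96, 0.022), Tnfrsf11a (1.48, 0.049) and Tnfrsf11b (-3.35, 0.028) had adjusted p of 0.053 to 0.16. Without TTF 2, Tnfrsf21 (4.12, 0.0099) and Il15 (2.43, 0.013) had adjusted p of 0.051 and 0.062. Also without TTF 1 or iHep 3 the calls of Ptger3, Csf1 and Tnfrsf11a ended, and further ones without iHep 4 (Ptger3, Tnfrsf11a), iHep 2 (Tnfrsf11a, Tnfrsf11b), iHep 1 (Tnfrsf11b) or hepatocyte arrays (1 and 4 for Ptger3, all 4 for Tnfrsf11a). Tbxa2r (-3.47, 0.034) lost its call without TTF 1, TTF 3, iHep 2, iHep 3 or iHep 4 (0.052 to 0.12). Without TTF 2 the count of higher interleukin and TNF family genes was 0, and without TTF 2 or TTF 3 that of lower ones was 1.

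Genes of fat storage and handling were higher in a larger share (33.3%) than all genes (6.86%), and lower in a like share (6.67%, against 6.52%). Of 45 lipid droplet and triglyceride genes, 15 were higher and 3 lower, with a median of 0.79, and the count of higher genes was 8 without TTF 2 and 8 without TTF 3. Pparg, the fat-storage nuclear receptor, which was named after its values were seen, had levels of 3.60, 3.31, 3.45 and 3.42 on iHep 1 to 4, against 0.82, -0.96 and -1.31 on TTF 1 to 3, and rose by 3.93 ± 0.46 (adjusted p = 0.00033). Cd36, a fatty acid translocase, had levels of -1.86, 0.57, -3.41 and -3.63, against -8.05, -7.64 and -7.77 (2 of 3 above the limit), and rose by 5.74 ± 0.91 (adjusted p = 0.002). Fabp1, the liver fatty acid binding protein, had levels of 5.68, 5.17, -2.56 and -3.47, against -6.73, -7.67 and -8.79 (1 of 3 above the limit). It rose by 8.94 ± 2.32 (adjusted p = 0.027), a call that ended without any 1 TTF array, iHep 1 or iHep 2 (0.054 to 0.1). Fabp5, the epidermal form, had the opposite split, at -3.08, -2.82, 1.53 and 1.26, and rose by 3.97 ± 1.11 (adjusted p = 0.037), a call that ended without any 1 TTF array, iHep 3, iHep 4, hepatocyte 1 or hepatocyte 4 (0.052 to 0.11). Lpin3, a phosphatidate phosphatase, fell by 4.55 ± 0.59 (adjusted p = 0.00062), and the calls of G0s2 (-2.62, adjusted p = 0.024) and Lipg (-2.27, adjusted p = 0.035, 3 of 4 iHep arrays above the limit) ended without TTF 3 or iHep 4, for G0s2 also without TTF 1 and for Lipg also without TTF 2, iHep 1, iHep 2 or hepatocyte 4 (0.051 to 0.15).

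Of 49 peroxisome genes, 6 were higher (12.2%, against 6.86% of all genes) and 1 lower (2.04%, against 6.52%). Their median was 0.27, and the count of higher genes was 3 without TTF 2. Acox2, the oxidase that shortens bile acid precursors, had levels of -0.50, 1.52, 2.05 and 3.27 on iHep 1 to 4, against -6.24, -6.34 and -5.36 on TTF 1 to 3, and rose by 7.56 ± 0.78 (adjusted p = 0.00015). Phyh, which starts the breakdown of phytanic acid, rose by 2.22 ± 0.28 (adjusted p = 0.00047), at 4.24 to 4.64 on the iHep arrays against 1.85 to 2.86. Baat, which joins bile acids to amino acids, rose by 3.24 ± 0.71 (adjusted p = 0.011, and 0.05 without TTF 2), and Abcd2, a very long chain fatty acid carrier, fell by 2.11 ± 0.48 (adjusted p = 0.015, 1 of 4 iHep arrays above the limit, and 0.063 without TTF 3). Of 37 redox genes, 5 were higher (13.5%, against 6.86% of all genes) and 2 lower (5.41%, against 6.52%), with a median of 0.49. Gclc, the rate-limiting subunit of glutathione synthesis, had levels of 5.35, 5.34, 6.04 and 6.72 on iHep 1 to 4, against 1.68, 1.93 and 1.41 on TTF 1 to 3, and rose by 4.19 ± 0.51 (adjusted p = 0.00039). Gsr, which recycles glutathione, and Sod2, the mitochondrial superoxide dismutase, rose by 2.19 ± 0.43 (adjusted p = 0.0062) and 1.77 ± 0.27 (adjusted p = 0.0016). The peroxidases of the endoplasmic reticulum went the other way, as Gpx7 fell by 4.38 ± 0.58 (adjusted p = 0.00064) and Gpx8 fell by 2.82 ± 0.52 (adjusted p = 0.0046).

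Secretory pathway genes had shares of calls near those of all genes. Of 50 secretory pathway and stress genes of the endoplasmic reticulum, 3 were higher (6%, against 6.86% of all genes) and 2 lower (4%, against 6.52%), with a median of 0.24. Without TTF 2 the counts were 1 and 0, and without iHep 1 they were 5 and 0. Creb3l2, a membrane-bound factor of secretory cells, rose by 1.49 ± 0.28 (adjusted p = 0.0054), at 3.07 to 3.99 on the iHep arrays against 1.83 to 2.27. Xbp1, the secretory cell factor, rose by 1.49 ± 0.32 (adjusted p = 0.012, and 0.06 without TTF 2). The calls of Edem2 (1.29, adjusted p = 0.036), Ddit3 (-1.79, 0.026) and Trib3 (-1.40, 0.039) ended without TTF 2 or TTF 3 (adjusted p of 0.05 to 0.15), for Edem2 and Trib3 also without TTF 1 or iHep 4, for Ddit3 and Trib3 also without iHep 1, and for all 3 without iHep 2. Edem2 also lost its call without iHep 3, hepatocyte 2 or hepatocyte 4, and Trib3 without hepatocyte 1 or hepatocyte 3. None of 17 reference genes was called, with a median of -0.07. Of 7 measured oncofetal genes, Hmga2, a chromatin protein of embryonic and proliferating mesenchyme, was lower, at -0.88, -1.33, -3.09 and -2.39 on iHep 1 to 4, against 0.30, 2.89 and 2.79 on TTF 1 to 3, and fell by 3.92 ± 0.66 (adjusted p = 0.0029). In the set-aside lists, 39 of 87 liver secretory genes were higher and 1 lower, and 2 of 84 matrix genes were higher and 43 lower. The lower liver secretory gene lost its call without TTF 2 or TTF 3. The higher matrix genes numbered 0 without TTF 2 or TTF 3 and 1 without iHep 1, iHep 2 or any 1 hepatocyte array.

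**Figure D4:**
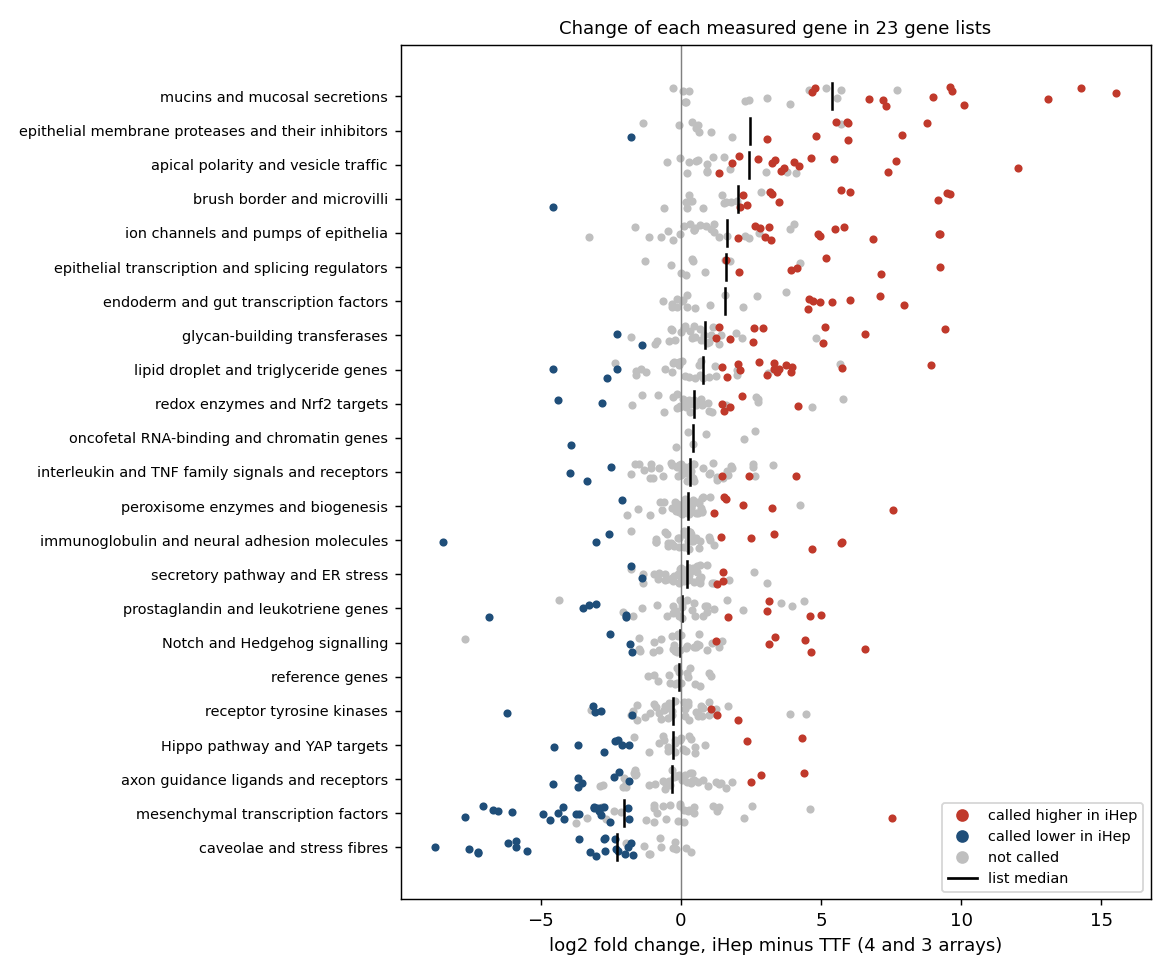
Log2 fold change, iHep minus TTF, of each measured gene in 23 gene lists (1 point per gene, called higher, called lower or not called, with the list median as a bar). Medians run from 5.38 for mucins and mucosal secretions at the top to -2.28 for caveolae and stress fibres at the bottom, and most lists hold uncalled genes near 0.

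Among the 127 symbol families of at least 15 tested genes, the Pcdhb family held the highest share of lower genes, 10 of 22 (45.5%, against 6.52% of all genes), and no higher one. These clustered protocadherins are adhesion proteins encoded side by side on 1 chromosome, and Pcdhb14 to Pcdhb21 formed an unbroken run of 8 lower neighbours with a median of -3.26. Pcdhb14 had levels of -5.58, -5.99, -4.25 and -4.32 on iHep 1 to 4, against -0.88, -1.19 and -1.18 on TTF 1 to 3, and fell by 3.95 ± 0.58 (adjusted p = 0.0013). Pcdhb17 fell by 3.64 ± 0.73 (adjusted p = 0.0074) and Pcdhb21 fell by 4.11 ± 1.09 (adjusted p = 0.029, 3 of 4 iHep arrays above the limit), the last not without any 1 TTF array or iHep 1 (0.05 to 0.1). Pcdhb22 had the same direction and was not called (adjusted p = 0.11). The genes are close copies, so probes of 1 may read another and the count is uncertain. These family members were named after their values were seen.

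**Figure D5:**
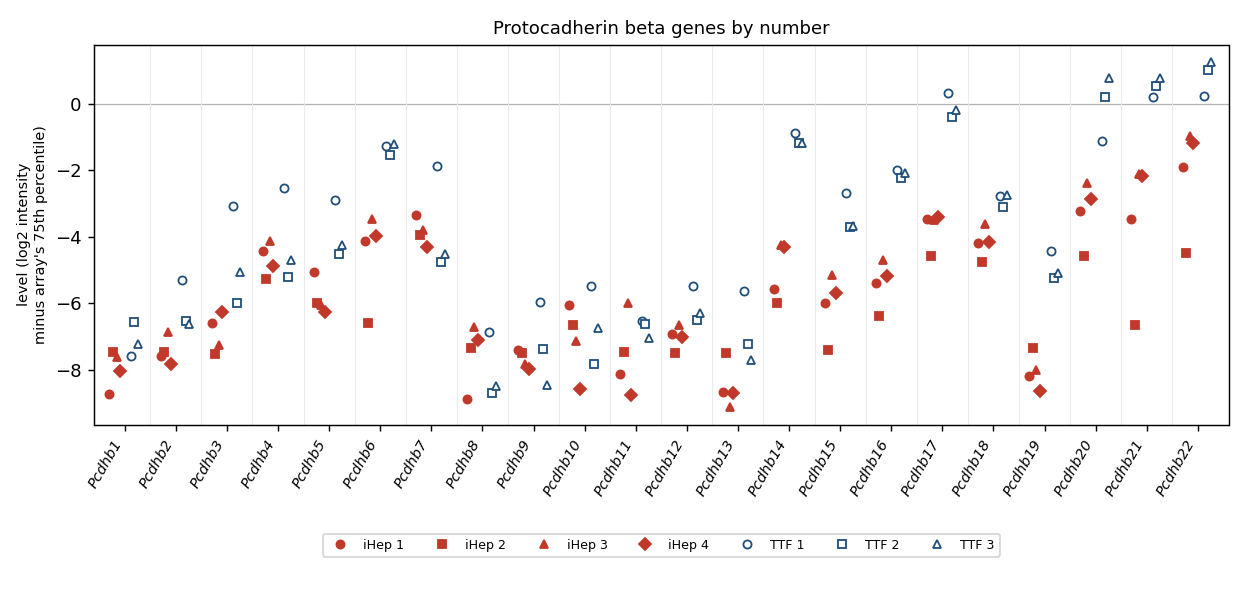
Level on each array (log2 intensity minus the array's 75th percentile) of the 22 Pcdhb genes by number, iHep arrays filled at the left of each gene and TTF arrays open at the right. From Pcdhb14 on the groups are apart, as for Pcdhb17 at -4.58 to -3.39 on the iHep arrays against -0.40 to 0.34 on the TTF arrays, while several genes of lower number overlap near the limit.

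Runs of at least 4 neighbouring genes called in the same direction numbered 9 upward and 8 downward. A lower run was the imprinted cluster of Dlk1, Meg3, Rian and Mirg on chromosome 12, with a median of -7.13. Dlk1, a surface protein of progenitor cells, had levels of -7.15, -6.78, -6.56 and -7.27 on iHep 1 to 4 (3 of 4 above the limit), against 0.01, 1.63 and 1.14 on TTF 1 to 3, and fell by 7.86 ± 0.53 (adjusted p = 9.4e-06). Meg3, a noncoding RNA of the same cluster, had levels of -6.13, -7.11, -6.25 and -5.88 (3 of 4 above the limit), against -0.91, 0.20 and 0.59, and fell by 6.30 ± 1.07 (adjusted p = 0.0028). The cluster is known to express Dlk1 from the paternal and Meg3 from the maternal copy, and both fell. Rian fell by 6.75 ± 1.47 (adjusted p = 0.011, and 0.051 without TTF 3) and Mirg fell by 7.51 ± 1.69 (adjusted p = 0.013, but 0.056 to 0.062 without TTF 2 or TTF 3), with only 2 of the 4 iHep arrays above the limit for both genes. The imprinted gene Peg3, a zinc finger factor elsewhere in the genome, had levels of 0.89, 0.31, 0.57 and 0.26 on iHep 1 to 4, against -5.26, -7.53 and -8.08 on TTF 1 to 3 (2 of 3 above the limit), and rose by 7.47 ± 0.82 (adjusted p = 0.00022). A higher run on chromosome 3 held Sprr2a1, Sprr2b, Sprr2d, Sprr2e and Sprr2f, with a median of 5.54. Sprr2f had levels of -0.69, -0.32, 3.39 and 3.72 on iHep 1 to 4, with no TTF array above the limit. It was at least 504-fold higher (adjusted p = 0.00016, at least 304-fold without iHep 4 and 124-fold with iHep 1 and iHep 2 alone). Sprr2a1 rose by 5.54 ± 0.45 (adjusted p = 3.2e-05) but changed by -0.07 (adjusted p = 0.9) when read by its brightest probe alone. The Sprr2 genes too are close copies whose probes may not be told apart. The genes of these runs and Peg3 were named after their values were seen.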

How the data were processed

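RNA was read on 1 one-colour Agilent array per sample, and the deposited table holds linear intensities, made with Agilent Feature Extraction 10.5.1.1 per the submitters' processing notes; the background handling is not given in the sources used here. Of 45018 features, the platform table named 33653 with 1 symbol, 56 with several and 11309 with none; 33517 had their gene ID in the RefSeq gene table. Here each log2 intensity had the 75th percentile of its array subtracted, and the probes of a gene were averaged (19087 genes, 8343 with several probes). A feature was above the limit at 3 times the local floor, the lowest of 101 features around it, and a gene if any of its probes was. A bound of "at least N-fold" sets the brighter group's mean against the dimmer arrays' limit.

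Groups came from the array titles. iHep (4), TTF (3) and hepatocyte (4) arrays entered 1 limma 3.58.1 model (R 4.3.3; lmFit, eBayes, Benjamini-Hochberg over all genes), so that they share 1 estimate of the spread. Tables were handled with Python 3.11.15, pandas 2.3.3 and NumPy 2.4.6. Scripts were tested on simulated data. The number of arrays limits the precision.

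Members and lists were chosen with earlier results of these data known. Named were the 12 largest called increases and decreases (plain symbols outside the set-aside lists, groups apart, brighter group above the limit throughout), the 3 largest called changes per list and direction, and the markers Cdh1, Epcam, Krt8, Krt18, Vim, Twist2, Prrx1, Pdgfra and Thy1. Alternatives were another scaling, probe choice, filter, floor, offset, fit and limit, array weights, the replicate number as a block, and leaving out arrays.

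Promoter motifs were searched as exact letters on both strands. They were GTTAAT for HNF1, CAAAGTCCA for HNF4, TGTTTAC for FOXA, AGATAA for factors of the GATA family, TTTATNG for CDX, AACCNGTT for GRHL, the E-box CAGGTG, the E-box CAGCTG, the E-box CACGTG, the AP-1 site TGANTCA, the TEAD site GGAATG, the TATA element TATAAA and the CArG box. Motifs may overlap in a window, and 2648 genes had several windows.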

Additional observations from a re-analysis of the deposited data

Results flagged for a closer look

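Of 182 genes read for this purpose, 6 had an iHep array whose gap to the nearest other colony as a share of their whole range passed the 95% critical value of Dixon's test for 4 samples, which chance passes in about 5% of groups. Of the 6, 5 concern iHep 2. This array had the higher floor, and whether the floor bears on these values was not tested. On iHep 2, Ehf was high at -0.18, against -0.73 to -0.69 on the other colonies. Insr was low there at -2.77, against -1.97 to -1.81, Foxa3 at -5.32, against -3.33 to -3.15, and Pcdhb17 at -4.58, against -3.48 to -3.39. Pdgfra was low on iHep 2 at -6.84, against 0.07 to 1.15 on the other colonies, the widest of these gaps. On iHep 1, Gpx7 was high at -0.31, against -2.02 to -1.78.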

How the results depend on the processing

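Of 176 called genes followed gene by gene, 124 kept their direction and call in all 23 alternative settings, and 1 changed sign in 1 setting. With the brightest probe of a gene in place of the probe mean, Sprr2a1 had a change of -0.07 (adjusted p = 0.9). Called genes named only within a list or run, such as Sftpd, Tff1, Atp4a, Col2a1, Sprr2b and Sprr2e, were not among the 176. The counts of higher and lower genes were 2975 and 2709 with array weights and 2016 and 1995 with iHep 3 and iHep 4 alone. Leaving out 1 array gave 760 to 1412 higher and 751 to 1338 lower genes. With a limit at 5 times the local floor, 156 genes were on in all iHep arrays and no TTF array and 102 the reverse, against 82 and 67. With the replicate number as a block, 1135 and 1039 genes were called. Same-numbered iHep and TTF arrays deviated together from their group means with correlations of 0.062, 0.018 and 0.066. For arrays of different number the correlations were -0.064 to 0.042. Values this small cannot decide whether the numbers pair the arrays. In the other settings these counts over all genes stayed within 1.5 times; with scaling by the array median, which moved the median change of all genes to -0.09, they were 1114 and 1391. Of 27 list counts of 5 or more, 13 moved over 1.5 times with array weights, 7 with iHep 3 and iHep 4 alone, 2 with iHep 1 and iHep 2 alone and 1 with log2 of intensity plus 16. Smaller counts moved more often, and over all 70 list counts 42 moved in some setting other than leaving out 1 array, 14 of them in a setting other than array weights and 1 colony pair. Peroxisome genes lower ranged from 0 to 6 and matrix genes higher from 0 to 8. Why the counts moved was not tested. Intensity near the floor limits what dim genes can show. With values raised to the limit of measurement, the calls of Spink5, Gcnt3, Erbb3, Epha3, Gli3, Abcd2 and Ptprc ended. With the brightest probe of a gene, those of Erbb3, Ncam1, Il15, Lfng, Gli3 and Abcd2 ended.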

Other observations

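Sensors of bacterial products were read outside the lists and named after their values were seen. Nlrc4, the scaffold of an inflammasome, had levels of 1.08, 1.48, -1.75 and -1.64 on iHep 1 to 4, with no TTF array above the limit. It was at least 128-fold higher (adjusted p = 0.00043, and at least 45.6-fold with iHep 3 and iHep 4 alone). Its partners Naip2, Naip5 and Naip6, which recognise bacterial proteins, rose by 5.51 ± 0.43 (adjusted p = 2.4e-05), 6.36 ± 0.83 (adjusted p = 0.00061) and 2.01 ± 0.33 (adjusted p = 0.0024, 2 of 3 TTF arrays above the limit). Naip2 was even, at 1.34 to 1.74 on the iHep arrays against -5.05 to -3.34 on the TTF arrays, whereas Naip5 was brighter on iHep 1 and iHep 2, at 1.66 and 2.27, than on iHep 3 and iHep 4, at -0.87 and -0.59. Nod2, a sensor of cell wall fragments, rose by 6.81 ± 0.60 (adjusted p = 5.3e-05, 1 of 3 TTF arrays above the limit). Among macrophage and leukocyte markers, Cd14 was higher by 4.85, at 3.72 to 5.04 on the iHep arrays against -0.62 to -0.41 on the TTF arrays. Ptprc was brighter on iHep 1 and iHep 2, at -3.87 and -5.50, than on iHep 3 and iHep 4, at -6.68 and -6.85, and their part in these values was not tested. No list of sensors was counted. The Naip genes are close copies and their probes may not be told apart.

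Small X-linked Bex genes, known from neurons and regenerating liver, were also high in the colonies and were named after their values were seen. Bex4 had levels of 6.03, 3.08, 3.89 and 2.31 on iHep 1 to 4, against -5.52, -6.46 and -5.84 on TTF 1 to 3, and rose by 9.77 ± 0.96 (adjusted p = 0.00011). Bex1 and Bex2 rose by 7.34 ± 1.17 (adjusted p = 0.002) and 8.14 ± 1.12 (adjusted p = 0.0008, 1 of 3 TTF arrays above the limit). Grb7, a signalling adaptor, and Hkdc1, a hexokinase, rose by 10.11 ± 0.59 (adjusted p = 3e-06) and 10.17 ± 1.0 (adjusted p = 0.00011, 1 of 3 TTF arrays above the limit).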
